A study of Mus musculus with 8 samples.

Results

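The m6A peaks that lay over the 5′-UTR or the start codon of mouse macrophage mRNAs formed 1125 of the 12350 peak regions found in 4 bone-marrow-derived macrophage (BMDM) cultures, or 9.11%, on 1093 genes. A region is the stretch covered by same-strand peaks of any of the 4 peak lists that share 1 bp or more. Each region was assigned to the protein-coding gene of GENCODE M21 with the largest exon overlap and placed on that gene's longest coding transcript (mouse genome GRCm38). It was kept here if its midpoint lay in the 5′-UTR or if it overlapped the start codon without reaching the stop codon. One region whose midpoint lay in the 5′-UTR also reached the stop codon and was kept by the first of these conditions. The other regions lay over a stop codon (3874), inside the CDS (2802), in the 3′-UTR (3047), outside the exons of the longest coding transcript (1117) or outside coding-gene exons (385).

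RNA came from BMDMs of C57BL/6 mice aged 8 weeks, grown for 7 days with M-CSF at 40 ng/mL. The 2 WT mice were *Mettl3* fl/fl; Lyz2+/+ and the 2 KO mice *Mettl3* fl/fl; Lyz2cre/+, so both genotypes carried the floxed *Mettl3* allele and the KO mice also carried Cre at the Lyz2 locus. This Cre is active in myeloid cells, and a bulk culture can keep cells that escaped deletion. Each mouse gave an IP library and an input library (8 libraries), and the authors deposited a peak list per mouse, 2 for WT (WT-1, WT-2) and 2 for KO (KO-1, KO-2). *Mettl3* had no peak in any list, so the lists give no check of the genotypes. Of 10 macrophage marker genes, 3 had a peak in each WT list, 1 in KO-1 and 2 in KO-2 (among them *Fcgr1*, *Mertk*, *Cd14* and *Mrc1*), while *Csf1r*, *Adgre1*, *Itgam*, *Cd68*, *Spi1* and *Lyz2* had none. Of the markers of other blood cells, *Cd4* was in both WT lists, *Pax5* was in WT-1 and KO-1, and no neutrophil or dendritic cell marker had one. A gene without a listed peak may still be expressed, so these counts neither place nor remove a cell type, and their part in the results was not tested.

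N6-methyladenosine (m6A) is the most common internal mark of mRNA. METTL3 is the catalytic subunit of the nuclear complex that writes it, mostly on the A of a DRACH sequence, of which GGAC is the best-known form. On most mRNAs the mark is densest near the stop codon. In the 5′-UTR, m6A is known for cap-independent initiation of translation, and a methylated A that follows the cap (m6Am, written by PCIF1) is also bound by m6A antibodies, so antibody peaks at the very start of an mRNA can hold either mark.

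Short windows around a GGAC show what these regions look like at the sequence level. The regions come from those named below by rank of peak score, with ties taken in the order of the symbols. Of those with a peak in all 4 lists or only in the WT lists, some are shown, picked by no stated rule. Each window is that of the GGAC nearest to the start codon. Sequences were read 5′ to 3′ from the GENCODE M21 transcripts (GRCm38) and the capitals mark GGAC. The regions of the first set had a peak in all 4 lists, those of the next only in the WT lists and those of the last only in the KO lists. This holds for the region, and the GGAC shown need not lie in the peak of each list. It lay outside the WT-2 peak on *Bptf* and *Birc3*, the WT-1 peak on *Cd93* and the KO-1 peak on *Mepce*.
*Wdr81*, chr11:75454430-75454459, minus strand: ccccaggcggccaGGACcaaatggcccagg
*Bptf*, chr11:107132008-107132037, minus strand: gcccctcccgcccGGACcccggcgccctcc
*Ddx6*, chr9:44607269-44607298, plus strand: atattattgagcaGGACttatttatctctt
*Arhgap25*, chr6:87533058-87533087, minus strand: gtgacagatggatGGACggttcatgagaga
*Cd93*, chr2:148443314-148443343, minus strand: gtggtgtgcgaggGGACtgcctgctataca
*Fbxw7*, chr3:84903647-84903676, plus strand: ccaggttgatgagGGACagatgaatcgcgt
*Birc3*, chr9:7861063-7861092, minus strand: actggaaacaaggGGACagtcccatggaga
*Gtf2e1*, chr16:37536051-37536080, minus strand: acgtgttggccttGGACatcttgatccgga
*Wdr76*, chr2:121510835-121510864, plus strand: aagtaccaggctgGGACccaagaggacctc
*Sdf2*, chr11:78245962-78245991, plus strand: cttccggttccggGGACgggcctaattttc
*Itprid2*, chr2:79635667-79635696, plus strand: agacgacgacgcaGGACgaggacgaggacg
*Cdk11b*, chr4:155625545-155625574, plus strand: tgggtgatgaaaaGGACtcttggaaagtga
*Lig3*, chr11:82783577-82783606, plus strand: agggtcgcatgtgGGACtctgtactggccc
*Mepce*, chr5:137786345-137786374, minus strand: tcctgggcgagcgGGACgcgcgcccgtcgt
*Wrap53*, chr11:69579150-69579179, minus strand: ggaagaggaaagcGGACtccggtctctgag
*Vcan*, chr13:89742235-89742264, minus strand: tggccaagcgctgGGACaaggatctgccgc

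The windows shown fell on both sides of the start codon, which is a description of a picked set. Windows not shown included those of *Ep400* and *Aftph*, where the A lay in the CDS at 743 and 422. The A of the GGAC in *Wdr81* lay 5 nt upstream of the start codon (position -5 relative to its first base), and that window holds the start codon itself. In *Cdk11b* the A lay 16 nt into the CDS. In *Bptf*, *Ddx6* and *Arhgap25* the A lay in the 5′-UTR, at -100, -109 and -186, and in *Sdf2*, *Wrap53*, *Vcan* and *Mepce* at -19, -112, -183 and -297. In *Cd93*, *Fbxw7*, *Birc3*, *Lig3* and *Itprid2* it lay in the CDS, at 96, 92, 238, 242 and 142. A match says that these letters stand in the window and does not place the methylated base, which peaks of at least 300 bp do not resolve.

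The rule of choice holds the regions near the start codon, so their position relative to it is a description. Among the 1099 whose midpoint lay on an exon of the transcript, the median midpoint was 33 nt downstream of the start codon, with quartiles at -161.5 and 198 nt. Of these, 614 (55.9%) lay within 200 nt of it. The start codon was covered by 920 of the 1125 regions (81.8%). By type, 205 had their midpoint in the 5′-UTR and did not cover the start codon, 297 had their midpoint in the 5′-UTR and covered it, 597 had their midpoint in the CDS and covered it, and 26 covered it with a midpoint outside the exons. More bases lay in the CDS than in the 5′-UTR in 619 regions (55.0%).

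**Figure D1:**
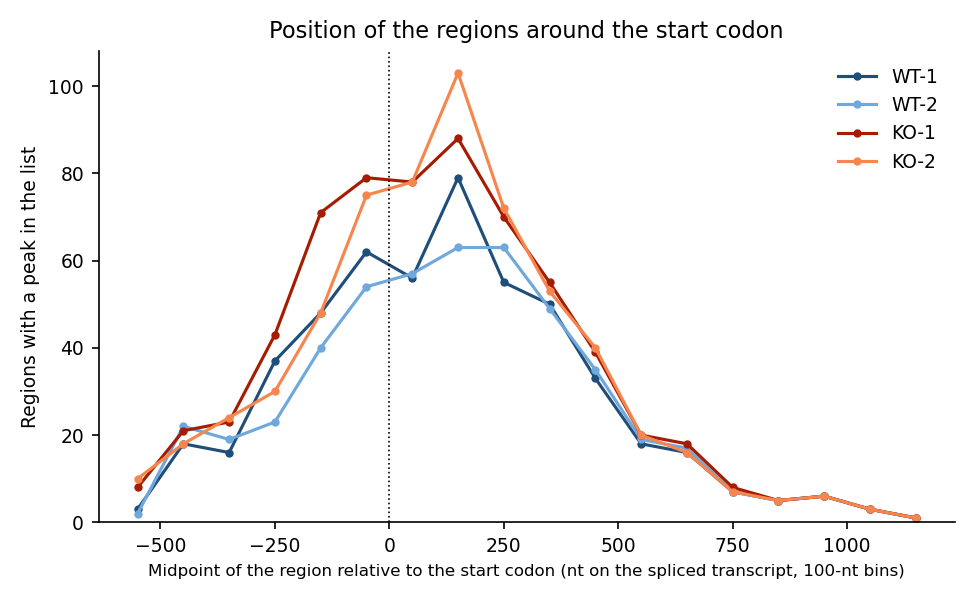
Number of regions with a peak in each list (y axis) by the position of the region's midpoint relative to the start codon in nt on the spliced transcript (x axis, 100-nt bins, one line per list). Counts were highest in the bin from 100 to 200 nt in both KO lists (88 and 103) and in WT-1 (79), and in WT-2 they were equal there and in the next bin (63).

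Many edges of the regions coincided with exon ends. Nearly all (1113 of 1125, 98.9%) had their exonic bases in 1 exon, 821 (73.0%) had an edge exactly at an exon end, 534 (47.5%) had one at the 3′ end of the exon with the start codon, and 257 (22.8%) ran from one end of an exon to the other. The *Fbxw7* region (chr3:84903501-84904079), on the gene of a substrate receptor of an SCF ubiquitin ligase, was the whole 579-nt exon 4 in every list. How the peak caller treated exon ends is not given in the sources used here. The exon with the start codon had a median length of 649 nt for the regions, against 237.5 nt for the 5952 other genes with a peak region and a longest coding transcript to compare. The 5′-UTR of the regions' transcripts was also longer, at a median of 375 nt against 182 nt for those other genes and 165 nt for all coding genes. The start codon lay in the first exon for 49.0% of the regions and 62.5% of the other genes, in the second for 37.3% and 27.7%, and in a later one for 13.7% and 9.88%. Since a peak spans at least 300 bp, short 5′-UTRs and short exons leave less room for one, and these lengths are given as a description.

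The first bases of the transcript were covered by a minority of the regions. The 5′ edge lay within 50 nt of the annotated transcript start in 389 regions (34.6%), at or beyond the start itself in 274, and 116 regions ran upstream of it. The first annotated base was A in 26.7% of the genes whose region began within 50 nt of the start, in 25.8% of the genes of the other regions and in 31.5% of all coding genes. The lists do not tell m6A from m6Am.

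KO lists held more of these regions than WT lists. The WT lists had 543 and 517 and the KO lists 674 and 647, so both KO lists were above both WT lists. WT lists averaged 530 ± 18.4 (SD, n = 2) and KO lists 660.5 ± 19.1 (SD, n = 2), which is 130.5 regions more in KO (p = 0.333 by two-sided exact permutation, the floor for 2 lists against 2). As a share of all the regions with a peak in the list the values were 9.18% and 8.66% in WT and 10.9% and 9.90% in KO, with means of 8.92% and 10.4% (exact permutation test, p = 0.333). Placing the peaks of each list on their own, without merging the lists, gave 489 and 455 peaks in WT and 636 and 616 in KO, and the genotypes again did not overlap. The median midpoint lay 121.5 and 150 nt downstream of the start codon in WT and 91 and 120 nt in KO (exact permutation test, p = 0.333). The design cannot bring any comparison of the genotypes below 0.05, so the differences are described by their size and by whether the lists overlap.

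**Figure D2:**
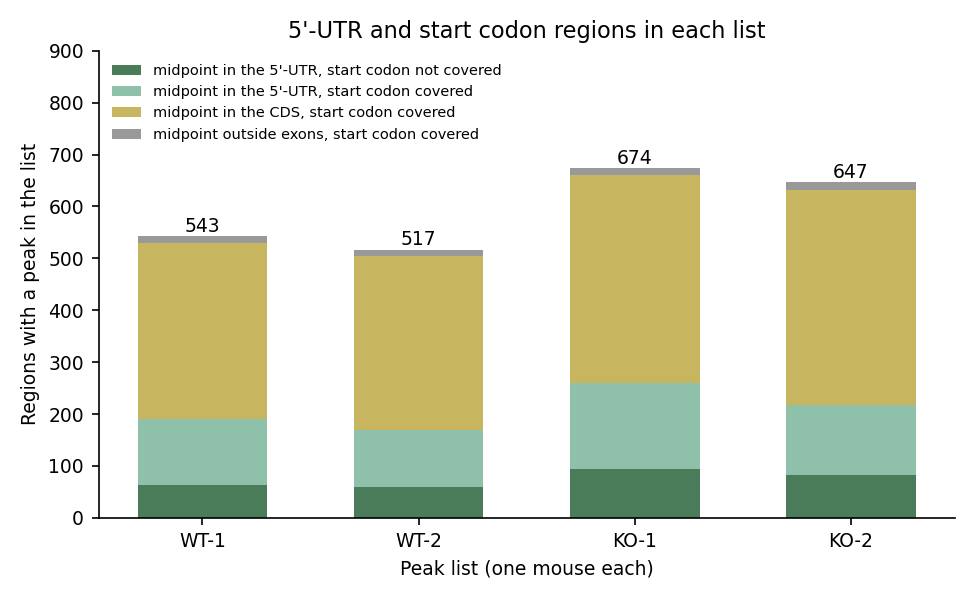
Number of 5′-UTR and start codon regions with a peak in each list (y axis), stacked by the type of region; each bar is the list of 1 mouse. Both KO bars (674 and 647) stand above both WT bars (543 and 517).

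Each of the common types of region was more numerous in both KO lists than in either WT list. Regions with a midpoint in the 5′-UTR that did not cover the start codon numbered 64 and 60 in WT against 94 and 83 in KO. Those with a midpoint in the 5′-UTR that covered it numbered 127 and 110 against 166 and 134, and those with a midpoint in the CDS 339 and 335 against 401 and 414. The 26 regions with a midpoint outside exons were shared out as 13 and 12 against 13 and 16, where the genotypes overlapped. The peak of the list itself covered the start codon in 384 and 366 regions in WT and in 512 and 521 in KO, which was 70.7%, 70.8%, 76.0% and 80.5% of the list's regions. Counted by the merged region instead, 88.2% and 88.4% of the WT and 86.1% and 87.2% of the KO regions covered it, so the direction depends on whose peak is counted. The peak of the list began within 50 nt of the transcript start in 136 and 101 regions in WT and 184 and 177 in KO.

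Peak regions inside the CDS were also more numerous in the KO lists, at 1392 and 1360 in WT and 1650 and 1661 in KO. For every 100 internal CDS regions there were 39.0 and 38.0 of the 5′-UTR and start codon regions in WT and 40.8 and 39.0 in KO, where the genotypes overlapped in range (difference 1.39, exact permutation test, p = 0.667). Against stop codon regions, which numbered 2216 and 2500 in WT and 2166 and 2371 in KO, the genotypes differed, with 24.5 and 20.7 for every 100 in WT and 31.1 and 27.3 in KO (exact permutation test, p = 0.333). Regions in the 3′-UTR went the other way, at 1153 and 1138 in WT against 989 and 1117 in KO (exact permutation test, p = 0.333). Some features of the lists as a whole were higher in both KO lists than in either WT list. All peaks numbered 6159, 6263, 6378 and 6684, their median width was 478, 498, 501 and 543 bp, and 10.3%, 13.5%, 16.2% and 19.5% of them had a score of at least 3100. The part of these differences in the counts of regions was not tested. A bulk library cannot tell fewer cells with a mark from fewer marked molecules per cell.

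Which regions recurred was a further question. Of the 1125 regions 515 (45.8%) had a peak in 1 list, 213 in 2, 148 in 3 and 249 (22.1%) in all 4, beside 17.8% of all 12350 regions. The share in all 4 lists was 27.9% over stop codons, 22.2% inside the CDS and 4.23% in the 3′-UTR. By type of region, of those with a midpoint in the CDS 33.0% were in all 4 lists, of those with a midpoint in the 5′-UTR that covered the start codon 13.5%, and of those that did not cover it 3.41%, or 7 of 205. Seen from each list, the 249 regions were 45.9% and 48.2% of the WT regions and 36.9% and 38.5% of the KO regions, a gap that follows from the larger KO lists. Inside the CDS the shares found in the other 3 lists were 44.8% and 45.8% in WT and 37.8% and 37.5% in KO. Over stop codons these shares were 48.8% and 43.3% in WT and 49.95% and 45.6% in KO, and the difference of the regions from them was -4.56 ± 7.52 percentage points (SD, n = 4, exact sign-flip permutation test, p = 0.375). The 2 types with a midpoint in the 5′-UTR were also narrower, with a median width of 387 and 372 bp against 579 bp, and a merged region is wider when more lists add to it.

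The percentile of the score went up with the number of lists. A score here is the number the peak caller gave each peak, between 50.05 and 3233.06, and it is read only as the percentile within its own list, since the lists give no read counts. A region took the highest score of its peaks in a list, wherever in the region that peak lay. The median percentile was 33.1 for regions in 1 list, 39.2 in 2, 54.0 in 3 and 79.9 in all 4. The mean percentile of the regions was 56.5 and 54.3 in WT and 56.3 and 56.4 in KO, where the genotypes overlapped (exact permutation test, p = 1). Compared within each list with the stop codon regions it was higher in 3 of 4 lists by 1.31 ± 1.87 points on average (SD, n = 4, exact sign-flip permutation test, p = 0.25), and compared with internal CDS regions it was lower in 4 of 4 lists, with differences from -2.54 to -0.346 points (exact sign-flip permutation test, p = 0.125, the smallest that 4 lists allow). The 4 lists share regions and are not independent measures.

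From the regions with the highest scores in all 4 lists 12 were named. They lay on *Ep400*, *Wdr81*, *Aftph*, *Arhgap12*, *Arhgap25*, *Arhgap5*, *Bptf*, *Ccdc186*, *Cd93*, *Ddx6*, *Fbxw7* and *Fgl2*. All had a score of 3100 or more in every list, a value at which many peaks were tied and which 39 of the 1125 regions reached in all 4 lists. Most of the 12 were thus taken from ties in the order of their symbols, and they are examples of that set and do not stand above the rest of it. The peak with that score did not always cover the start codon. On *Ep400* the peaks of WT-1 and KO-1 lay wholly downstream of it, and the KO-2 peak that covered it scored 140.68. Peaks of WT-2 on *Aftph* and *Bptf* and of WT-1 on *Cd93* and *Fgl2* also lay wholly downstream of it. *Ep400* encodes the ATPase of a chromatin remodelling complex and *Bptf* a subunit of the NURF remodeller. *Ddx6* encodes an RNA helicase of P-bodies, and *Cd93* a surface receptor of myeloid and endothelial cells.

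The extent of the peaks behind these regions varied between lists on most of the 12 genes. On *Arhgap12* the peak was 755 bp in each list, and on *Arhgap25* (chr6:87532826-87533259) 433, 433, 433 and 434 bp. On *Bptf* (chr11:107131274-107132127) it was 407 bp in WT-2 and 854 bp in the other lists. On *Cd93* (chr2:148441515-148443527) it was 1298 and 2001 bp in WT and 2013 bp in both KO lists. *Wdr81* (chr11:75450794-75454524) had 3 peaks in WT-1, 2 in WT-2 and a single peak of 3731 bp in each KO list. On *Ep400* the longest peak was that of WT-2, with 1370 bp against 838 bp in WT-1 and 590 and 628 bp in KO. KO-2 had a further peak of 487 bp in this region. On *Ccdc186* the longest peak was also that of WT-2, with 695 bp against 526 bp in WT-1 and 677 and 526 bp in KO. The longest peak on *Aftph* was 1955 and 1452 bp in WT and 1955 bp in both KO lists. For *Arhgap5* it was 1608 and 2315 bp in WT and 2315 and 3891 bp in KO. The *Ddx6* peak was 416 and 470 bp in WT and 470 bp in both KO lists. That of *Fgl2* was 525 and 591 bp in WT and 667 and 591 bp in KO. On several of these genes the KO peaks were thus as long as the WT peaks or longer. On *Ep400* the longest peak of each KO list was shorter than that of either WT list. The genes were picked after their values were seen, and the extent was not tested.

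Regions with a peak in both lists of one genotype and neither list of the other were 77 for KO and 18 for WT. The 77 were 6.84% of the regions (Wilson 95% interval 5.51 to 8.47, counting error only), beside 6.19% of all 12350 regions with that pattern. The 18 were 1.60% (1.01 to 2.51), beside 3.32% of all regions. The KO share was thus near that of all regions, and the WT share was below it. Over stop codons the shares were 4.52% for KO and 4.39% for WT, and inside the CDS 8.39% and 2.50%. The pairs of lists that mix genotypes (WT-1 with KO-1, WT-1 with KO-2, WT-2 with KO-1, WT-2 with KO-2) held 37, 28, 26 and 27 regions that the other lists lacked. These patterns rest on 1 split of 4 lists, and the difference between classes was not tested.

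**Figure D3:**
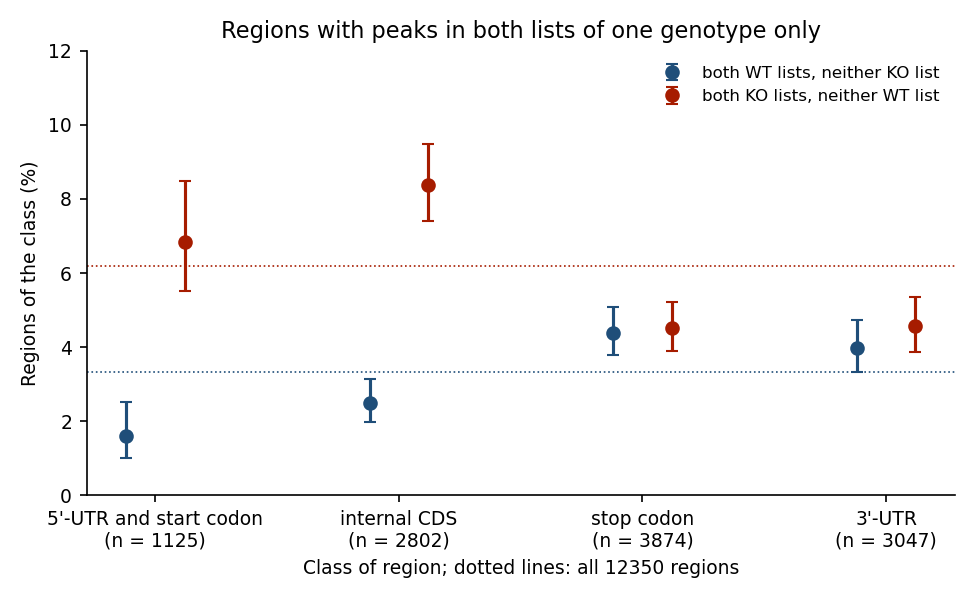
Share of the regions of each class with a peak in both lists of one genotype and neither of the other (y axis, %), for 4 classes of region (x axis); bars are Wilson 95% intervals and dotted lines give the share of all 12350 regions. The WT point of the 5′-UTR and start codon class (1.60%) lies below its line (3.32%), and the KO point (6.84%) is near its line (6.19%).

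The 6 WT-only regions with the highest lowest percentile lay on *Birc3*, *Gtf2e1*, *Wdr76*, *Zfp420*, *Tle4* and *Sdf2*. *Birc3*, which encodes an inhibitor of apoptosis and ubiquitin ligase of the NF-κB pathway, had scores of 2247.3 (WT-1) and 1539.82 (WT-2) (chr9:7860463-7861407), which are the 85.7 and 71.6 percentiles of those lists. *Gtf2e1*, the large subunit of the general transcription factor TFIIE, had 816.14 and 2136.53 (chr16:37535744-37536193). *Wdr76* had 2006.65 and 1137.06, and *Tle4*, a corepressor of the Groucho family, 610.34 and 2511.8. No peak of these regions was listed in either KO list. The other 12 WT-only regions lay on *Rhbdd1*, *Ptp4a1*, *Twnk*, *P2ry13*, *Gcnt2*, *Slc41a1*, *Pcmtd2*, *Gba2*, *Hist1h2bf*, *Zfp445*, *Insr* and *Hivep3*. Among them, and picked after their values were seen, *Insr*, the insulin receptor gene, had 663.63 and 117.61, and *P2ry13*, a purine receptor gene, had 248.91 and 587.66.

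The 6 leading KO-only regions lay on *Itprid2*, *Cdk11b*, *Lig3*, *Mepce*, *Wrap53* and *Vcan*. *Itprid2* had a KO-1 score of 2718.75 and a KO-2 score of 3100 (chr2:79635352-79635744). *Cdk11b*, a cyclin-dependent kinase gene, had 1422.79 and 3100 (chr4:155624927-155625654), and *Lig3*, the gene of DNA ligase III, 1353.82 and 3100 (chr11:82783346-82783899). *Mepce*, which encodes the capping enzyme of 7SK RNA, had 1009.84 and 3100 (chr5:137786277-137786701). *Wrap53*, a telomerase and Cajal body factor, had 1361.85 and 1299.71 (chr11:69578942-69579324), and *Vcan*, the proteoglycan versican, 990.22 and 3171.47 (chr13:89742073-89742512). In 5 of the 6 the KO-2 score was at or above 3100 and the KO-1 score below it. The *Mepce*, *Wrap53*, *Vcan* and *Itprid2* regions covered the annotated transcript start, and those of *Mepce* and *Vcan* ran upstream of it.

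**Figure D4:**
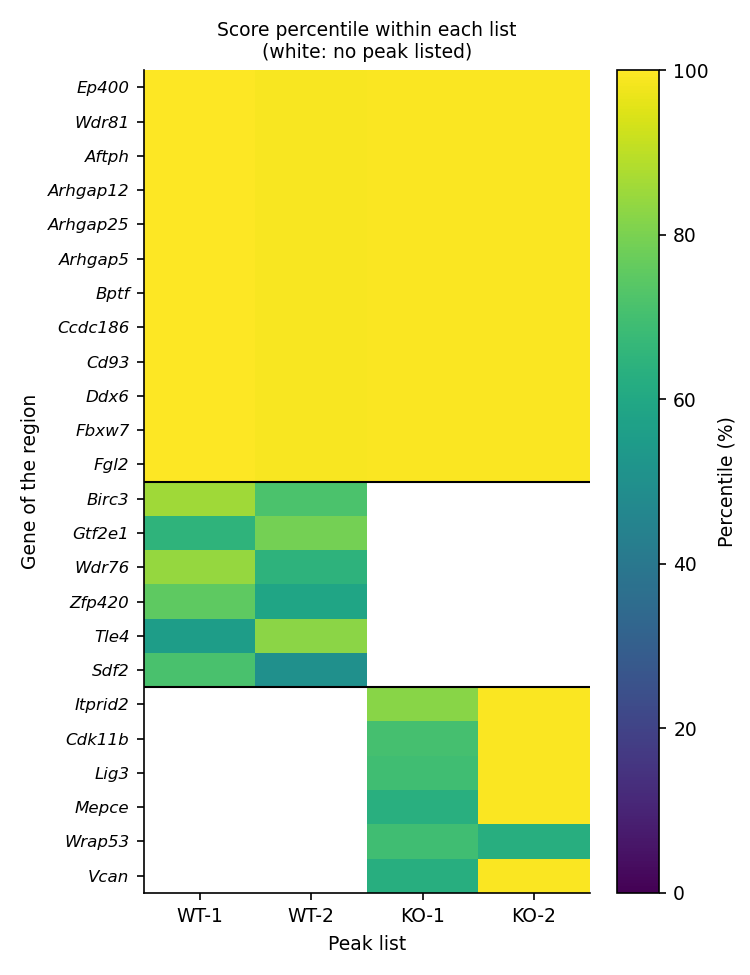
Percentile of the region's highest score within each list (colour, %) for the 24 regions named by rank (y axis, by gene) in the 4 lists (x axis). White cells have no listed peak. The top 12 are at 99.1 or above in all lists, and the WT-only regions (middle) and KO-only regions (bottom) were chosen for their white cells.

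The scores of the genotype-only regions lay in the middle of their lists. The median percentile was 41.4 for the 77 KO-only and 48.7 for the 18 WT-only regions, against 79.9 for regions in all 4 lists. The lower of the 2 percentiles passed 50 in 15 of the 77 and in 6 of the 18. In 52 of the 77 KO-only regions (67.5%) the same gene had a peak elsewhere in a WT list, and in 9 of the 18 WT-only regions (50%) in a KO list. Absence of a peak in the region was thus not absence of peaks from the gene for most KO-only regions and for 9 of the 18 WT-only regions. Some KO-only regions lay on genes of RNA metabolism, chosen here after their values were seen. *Ythdf3*, an m6A reader gene, had 1670.59 and 992.83 (chr3:16183183-16183520), *Hnrnpu* 298.75 and 762.34, and *Ddx17*, an RNA helicase gene, 257.48 and 845.3. *Hist1h2af*, *Hist1h2bf*, *Olfr56* and *Olfr165* belong to families with near-identical copies, and how reads shared by copies were counted is not given in the sources used here.

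Regions at the transcript start were set beside those further away. Of the 389 regions that began within 50 nt of the start, 32 (8.23%, Wilson 95% interval 5.89 to 11.4) were KO-only, 3 WT-only and 59 (15.2%) in all 4 lists. Of the 736 others, 45 (6.11%, 4.60 to 8.08) were KO-only, 15 WT-only and 190 (25.8%) in all 4. The intervals of the KO-only shares overlap. The lists held 165 and 137 regions in WT and 220 and 202 in KO near the start, and 378 and 380 against 454 and 445 away from it, so the KO lists were above the WT lists in both.

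The motif GGAC, searched on the transcript strand only, was in the central 200 bp of 759 regions (67.5%). The same share was 60.4% over stop codons, 64.6% inside the CDS, 54.4% in the 3′-UTR and 60.0% over all regions that lie on a longest coding transcript. Within each list the share was above that of stop codon regions in 4 of 4 lists, by 8.65 ± 1.57 percentage points (SD, n = 4, exact sign-flip permutation test, p = 0.125, the smallest that 4 lists allow). Over the whole region the direction turned, to 1.58 points below stop codon regions in 4 of 4 lists, where the median width was 449 bp against 697 bp over stop codons. By density, GGAC stood 5.75 times per kb in the regions, 4.52 over stop codons, 4.94 inside the CDS and 3.68 in the 3′-UTR. The wider motif DRACH (A, G or T, then A or G, then AC, then A, C or T), which takes in every GGAC not followed by G, went the other way, with 19.2 per kb against 22.1, 23.0 and 21.8. The median GC content of the central 200 bp was 57.5% against 48.5%, 52.0% and 45.5%, and its part in the motif counts was not tested.

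The motif shares of the genotypes were compared list by list. GGAC was in the central 200 bp of 65.6% and 67.5% of the WT-1 and WT-2 regions and of 68.0% and 69.1% of the KO-1 and KO-2 regions (difference 1.99 points, exact permutation test, p = 0.333). Over the whole region the genotypes overlapped, with 92.8% and 94.4% against 92.4% and 93.2%. KO-only regions held it centrally in 57 of 77 (74.0%, Wilson 95% interval 63.3 to 82.5), regions of all 4 lists in 175 of 249 (70.3%), and WT-only regions in 7 of 18 (38.9%, 20.3 to 61.4).

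Groups of genes were described by the share of their genes with any peak region that had one at the 5′-UTR or start codon, beside 15.5% (1093 of 7061) over all genes. The share was 5 of 17 genes of m6A writers, erasers and readers, 19 of 81 chromatin modifiers and coregulators (23.5%), 19 of 90 RNA-binding, splicing and helicase genes (21.1%) and 10 of 50 genes of MAP kinase signalling. It was 33 of 187 ubiquitin ligases and deubiquitinases (17.6%), 9 of 51 innate immune sensing and interferon genes, 24 of 138 solute carriers and 4 of 23 immediate early genes. Zinc finger genes had 43 of 345 (12.5%), translation factors 4 of 28, stress response genes with upstream open reading frames 2 of 18, lysosome and autophagy genes 3 of 35, chaperones 1 of 16 and ribosomal proteins 0 of 5. The lists were drawn up by gene symbol and were not tested.

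Among chromatin genes, 7 of 20 regions were in all 4 lists and 2 were KO-only. *Nsd1*, a histone H3 lysine methyltransferase gene, had a score of 3100 in all lists, *Arid3a* 2651.8 in WT-1 and 3100 in the others, and *Brd1* 1372.28 in WT-1 and 3100 in the others. The KO-only regions, named after their values were seen, were those of *Chd7*, a chromatin remodeller gene (1599.31 and 981.78), and *Setdb2*. Among the RNA-binding genes 7 of 21 regions were in all 4 lists and 3 KO-only. *Rbm12*, which like *Rbm6* encodes an RNA-binding protein, had 2548.91, 2913.99, 1911.5 and 3100. Among ubiquitin genes 12 of 36 were in all 4 lists and 5 KO-only, and *Rnf111*, a SUMO-targeted ubiquitin ligase gene, had 3100, 2256.33, 3100 and 3100. Over all 1125 regions 22.1% were in all 4 lists, 6.84% KO-only and 1.60% WT-only, and nothing particular to the 3 groups is read from their counts.

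Genes of the m6A machinery themselves carried such regions. *Rbm15*, an adaptor of the writer complex, had a peak in each list (1291.28, 2448.48, 3100 and 2339.48), as did *Alkbh5*, an m6A eraser (112.21, 2081.5, 1892.52 and 2028.2). WT-1 stood apart on *Alkbh5*, at the 8.83 percentile of its list against 72.6 to 78.5 in the others. The *Ythdf3* region described above was in the KO lists only. Among the stress genes, *Ppp1r15a* and *Ppp1r15b*, which encode the regulatory subunits that lead protein phosphatase 1 to eIF2α, each had a region in all 4 lists. The scores were 1235.63, 1524.76, 1428.19 and 2250.3 on *Ppp1r15a* (chr7:45523739-45525613), and 2506.58, 3100, 3100 and 3100 on *Ppp1r15b* (chr1:133131559-133133615).

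Signalling genes followed the same rule of naming. *Dusp1*, a phosphatase of MAP kinases that is induced early after stimulation, had 356.1, 587.76, 396.1 and 1374.37 (chr17:26508173-26508519), with its midpoint 23 nt upstream of the start codon. *Mapk6* had 735.79, 1985.64, 410.1 and 3100. None of the 9 regions on the listed innate immune sensing and interferon genes was in all 4 lists, beside 22.1% of all 1125 regions. Genes outside that list were not counted, and nothing particular to the group is read from so few regions. *Socs7* had a peak in 3 lists, *Tlr1* in WT-2 (3162.93) and KO-2 (1374.82), and *Tlr4*, the lipopolysaccharide receptor gene, in KO-1 alone (891.87). Of the solute carriers, *Slc15a3*, a lysosomal peptide and histidine transporter gene, had 3100 in all lists and *Slc8a1* 3100, 2385.56, 3100 and 3100. *Dnajb4* was the single chaperone gene, with a peak in WT-2 (498.3) and KO-2 (1280.15), and the translation factor gene *Eif4g1* had one in WT-1 (532.96) and KO-1 (612.52).

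Of the genes with a region at the 5′-UTR or start codon, 519 of 1093 (47.5%) also had one at the stop codon, against 3355 of 5968 other genes with a region (56.2%). They had an internal CDS region in 26.4% and a 3′-UTR region in 28.1%, against 30.5% and 35.9%. The other genes must have a region of some other kind to be counted, which raises their shares. For 286 of the 1093 genes (26.2%) it was the only peak region, and 32 genes had more than 1 region of this kind.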

How the data were processed

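m6A IP and input libraries of 2 WT and 2 KO BMDM cultures were sequenced by the authors, who deposited 1 peak list per mouse, not pooled, with the score of the peak caller for each peak. The submitters' processing notes name cutadapt 1.9.3, HISAT2 2.0.4 and mm10; the peak caller, its settings and the role of the input are not given in the sources used here. Without read counts the depth is unknown, and no level was compared between lists; a missing peak is not a level of 0. Starts were read as 0-based.

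Peaks were merged, placed and counted in Python 3.11.15 with numpy 2.4.6, scipy 1.17.1 and matplotlib 3.10.9. The genotypes were compared by the two-sided exact permutation test over 6 labellings, and classes of region within lists by exact sign flips over 16 patterns; no adjustment for the number of comparisons was made, since the smallest p-values (0.333 and 0.125) cannot pass 0.05. Shares have Wilson 95% intervals, for counting error only. The separate mice of a genotype are the replicates. Named regions were the 12 in all 4 lists with the highest minimum percentile (ties by the mean percentile, then alphabetically by symbol), the 6 WT-only and 6 KO-only regions ranked alike, and up to 3 per gene list (15 lists); others are said to be chosen after their values were seen. The regions, rules and lists were chosen with earlier results of these data known. The functions were tested on simulated data. The main alternatives were the top 50% of peaks by score, lists trimmed to the size of the shortest, merging across gaps up to 100 bp, the transcript with the longest CDS, placement by exonic bases, DRACH, the central 200 bp, a replicate block and each list left out; peaks cut to their central 300 bp and placement without merging were chosen after seeing the data. The result of 1 of the gene lists is not reported here.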

Additional observations from a re-analysis of the deposited data

How the results depend on the processing

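The excess of 5′-UTR and start codon regions in KO lists was above 0 under every alternative run, from 70.5 regions with the 50% of peaks with the highest scores to 154 without merging, with 91 for peaks cut to their central 300 bp and 117 to 140.5 when 1 list was left out. The counts of genotype-only regions followed the number of lists they were asked of. KO-only regions fell from 77 to 37 and WT-only regions from 18 to 9 with the top 50% of peaks, and with 1 list left out they ranged from 124 to 225 and from 31 to 130, since 1 list fewer then has to hold or lack a peak. The share in all lists left ranged from 26.9% to 30.1% for the same reason.

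Some small differences changed sign, and the cause was not tested except where the setting shows it. The mean percentile, KO minus WT, was -0.274 points without WT replicate 2 and at most 2.31 with another list left out. The share of regions covering the start codon, KO minus WT, was 0.182 points with the top 50% of peaks (-1.69 as reported). The share found in the other 3 lists, minus that of stop codon regions, was 4.84 points with the top 50% of peaks (-4.56 as reported). In the central 200 bp, which gives regions of unequal width the same length, the GGAC share was 1.99 points higher in KO (-0.788 over the whole region) and 8.65 points higher than over stop codons (-1.58). With the longest CDS 1079 regions were members, 1063 of them shared.

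The replicate differences of WT and KO correlated at 0.0209 over the regions. This gave no sign that the replicate numbers pair the lists, but it cannot exclude a pairing. With a replicate block the excess of regions in KO lists was 130.5 (exact permutation test, p = 0.5, the smallest that 2 pairs allow). Regions in KO but not WT in at least 1 pair, with no pair the other way, numbered 480, against 278 for WT. The same pattern was not counted over all regions, and the KO lists held more peaks in total. Nothing particular to the 5′-UTR and start codon regions is therefore read from these 2 counts. Only 2 lists per genotype, an unknown depth and scores tied at 3100 limit every comparison.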
